A study of Rattus norvegicus with 9 samples.

Results

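Gastrocnemius muscle of rats with an injured sciatic nerve and daily electrical stimulation (DN-SM) was set against the same muscle after a sham operation (SHAM), to describe what differed from sham muscle despite the stimulation. The comparison took the 3 libraries named DN-SM and the 3 named SHAM, 6 of the 9 in the series. All rats were males aged 8 weeks. DN-SM rats had sciatic nerve injury and then current through skin electrodes over the calf under pentobarbital anaesthesia, every day for 4 weeks from the operation, at 25 V and 1 mA in square pulses of 2 Hz and 300 ms. SHAM rats had the sham operation, the same anaesthesia and electrodes without current for 10 minutes. The other 3 libraries (DN) came from rats with nerve injury and unpowered electrodes. They stayed out of the test, and only their levels are given. The kind of nerve injury, the day of collection of SHAM and DN muscle and the hour of collection are not in the labels. Nor do they say that each library is 1 animal, so p-values measure the spread between these libraries, which may be technical.

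The gastrocnemius is a calf muscle made mostly of fast fibres and is driven by the sciatic nerve. When muscle loses its nerve, contraction stops, fibres shrink, and genes that nerve activity holds down come up, among them myogenin, subunits of the acetylcholine receptor, embryonic myosin and the cell cycle inhibitor Cdkn1a. Protein is then broken down through ubiquitin ligases such as Fbxo32 (atrogin-1) and Trim63 (MuRF1). Muscle also runs a circadian clock, in which Bmal1 with Clock or Npas2 switches on the Per and Cry repressors and output genes such as Dbp, Tef and Ciart, while the Nr1d1 and Nr1d2 receptors shut Bmal1 off.

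Each library held between 7926445 and 8893843 expected counts over 12232 to 12425 listed genes, and Acta1, the actin of muscle thin filaments, took 9.63% to 12.55% of the counts in the 6 libraries. Of 12 muscle fibre markers written, 9 matched a measured gene and were tested, while Ttn, Neb and Ryr1 did not match. The summed level of the 9 was 145000 to 161000 FPKM (fragments scaled to transcript length and library size) in SHAM and 176000 to 178000 in DN-SM. The SHAM libraries were less alike than the DN-SM libraries: log2 CPM, a gene's count relative to its library, had a median SD of 0.247 among SHAM libraries and 0.167 among DN-SM libraries. On the first principal component, with 32.4% of the variance, SHAM replicate 3 lay at -36.7, replicate 1 at -10.5 and replicate 2 at 2.16, against 11.3 to 20 in DN-SM. SHAM replicate 2 stood apart on the second, at 34.8. For some of the results that rest on one of these libraries, values without it are given as well.

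Of 9860 genes tested, 28 passed an adjusted p of 0.05 in edgeR's quasi-likelihood test (0.284% of the genes tested). DESeq2, run as an alternative on the same libraries, called 163, these 28 among them. Of these, 13 were higher in DN-SM (0.132%) and 15 were lower (0.152%), and 21 differed at least 2-fold. The largest rises were those of Ciart, Tmem158, Cdkn1a, Ppp1r14c and Per2, and the largest falls those of Bmal1, Fosb, Ltb, Fbxo32 and Asb2. In all 28 the libraries of the groups did not overlap, as in 18.8% of all genes tested. An unadjusted p under 0.05 was seen in 1131 genes, 552 higher and 579 lower. The median log2 fold change over all genes was 0.01, with the 10th percentile at -0.35 and the 90th at 0.42.

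The count moved with single libraries. It was 8 without SHAM replicate 1, 72 without SHAM replicate 2 and 19 without SHAM replicate 3. Without DN-SM replicates 1, 2 and 3 it was 12, 5 and 4. Cdkn1a, Per2 and Ppp1r27 were called in all 6 of these fits, and Bmal1 and Asb2 in 4. Of the others, 4 were called in 3 of these fits (Tmem158, Ppp1r14c, Dusp26 and gene ID 140582), 7 in 2, 11 in 1 and Ciart in none. The 11 (Igf2, Nfil3, Dhx37, Mknk2, Gpihbp1, Ddx23, Sez6l2, Lpin1, Ltb, Sh2d3c and Tceal5) passed only without SHAM replicate 2, at edgeR adjusted p of 0.0231 to 0.0499, and had 0.0514 to 0.248 when any other library was left out. No called gene changed direction in any of these fits.

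**Figure D1:**
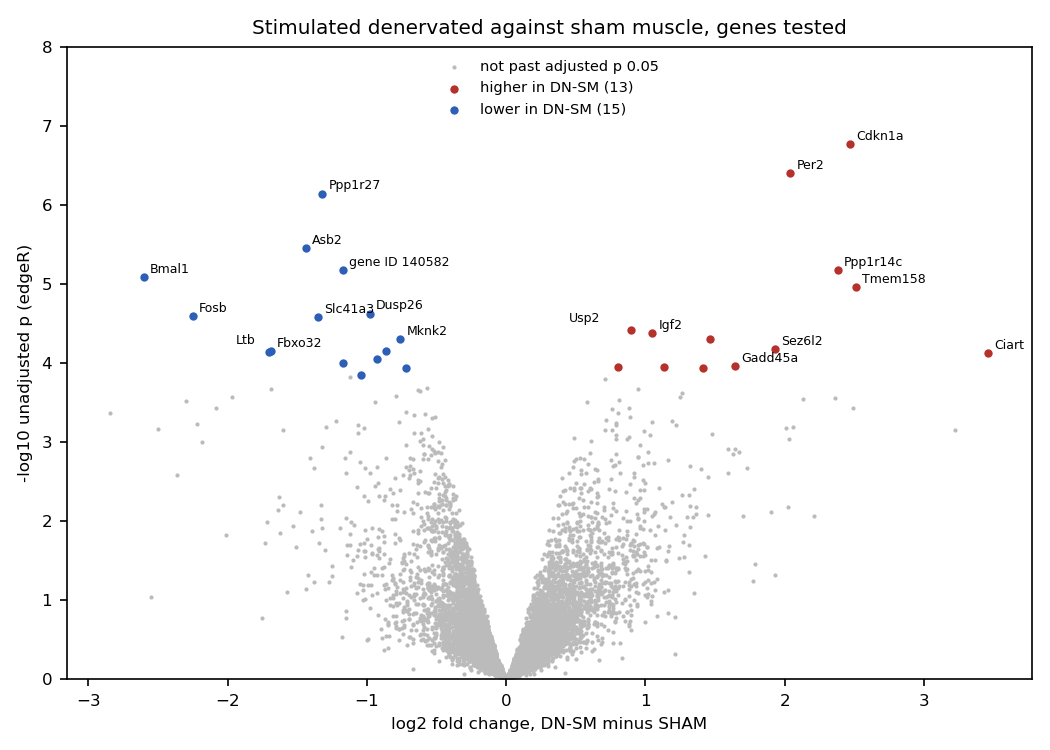
Log2 fold change (DN-SM minus SHAM, x axis) against the -log10 unadjusted p of edgeR (y axis) for the 9860 genes tested; coloured points are the 13 genes higher and the 15 genes lower in DN-SM at an adjusted p under 0.05. Cdkn1a and Per2 lie highest among the rises and Ppp1r27 among the falls.

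Genes of the circadian clock differed in both directions. Of 17 clock genes tested, Ciart and Per2 were called higher in DN-SM (0.132% of all genes), and Bmal1 and Nfil3 were called lower (0.152%). The libraries did not overlap in 11 of the 17 (64.7%, against 18.8% of all genes), with 7 higher (9.12% of all genes) and 4 lower (9.7%), and the list's median log2 fold change was 0.04. Bmal1 and Npas2, activators of the loop, were lower in every DN-SM library than in any SHAM library, and Per2, Per3, Ciart, Dbp and Tef were higher in every one. The hour of collection is not given for any library.

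The stretches before the start sites of Bmal1, Ciart and Per2 are shown because these 3 called clock genes hold short sequences of the kind that clock proteins are known to bind; they were picked for that. The same search found no match for the fourth called clock gene, Nfil3, nor for Dbp, Per1, Per3, Cry2, Clock, Npas2, Nr1d1 or Nr1d2, and found an E-box for Tef. Both strands were searched for the E-box CACGTG (Bmal1 with Clock), for TAGGTCA (the ROR and Nr1d receptors) and for the D-box TTANGTAA (Dbp and Tef activate it, Nfil3 represses it); the 3 motifs do not overlap one another here. Each line gives the 250 bases before the start in RefSeq's GRCr8 assembly, written 5′ to 3′ on the gene's strand, with matches in capitals.
Bmal1 (chr1:176766078-176766327, plus strand): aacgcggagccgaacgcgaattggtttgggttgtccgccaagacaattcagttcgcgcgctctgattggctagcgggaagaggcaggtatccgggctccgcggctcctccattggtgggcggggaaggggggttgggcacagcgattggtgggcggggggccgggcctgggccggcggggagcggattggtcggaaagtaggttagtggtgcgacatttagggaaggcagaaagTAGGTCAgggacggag
Ciart (chr2:186112247-186112496, minus strand): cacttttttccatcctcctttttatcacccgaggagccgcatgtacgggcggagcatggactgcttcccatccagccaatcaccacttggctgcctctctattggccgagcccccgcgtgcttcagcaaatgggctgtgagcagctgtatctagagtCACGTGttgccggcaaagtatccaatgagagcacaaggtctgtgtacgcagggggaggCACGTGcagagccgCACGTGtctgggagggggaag
Per2 (chr9:99496994-99497243, minus strand): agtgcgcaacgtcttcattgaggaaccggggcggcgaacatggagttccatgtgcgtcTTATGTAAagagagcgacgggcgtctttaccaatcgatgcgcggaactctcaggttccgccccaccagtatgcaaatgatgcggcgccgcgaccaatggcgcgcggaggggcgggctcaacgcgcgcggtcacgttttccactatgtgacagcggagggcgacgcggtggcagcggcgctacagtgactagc
Counted from the start site, Bmal1 had TAGGTCA at -16. Ciart had the E-box 3 times, at -93, -35 and -21. Per2 had a D-box at -192. Over windows of 300 bases, reaching 50 past the start, 6.42% of the 33469 promoters in the RefSeq table held the E-box, 2.63% TAGGTCA and 2.24% the D-box. Among the 21 called genes with an entry, the E-box was in 4 (Asb2, Ciart, Slc41a3 and Tceal5), TAGGTCA in 1 (Bmal1) and the D-box in 1 (Per2). A match describes the letters only, and the files hold no binding data.

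Bmal1 (gene ID 29657), the activator at the centre of the loop, was at 8.55, 5.84 and 6.43 FPKM in SHAM replicates 1 to 3 and at 1.42, 0.57 and 1.37 in DN-SM. The lowest SHAM library was above the highest DN-SM library, and the fall was -2.60 on the log2 scale (SE 0.294, edgeR adjusted p = 0.0115). It missed the threshold without SHAM replicate 1 (adjusted p = 0.0599) and without DN-SM replicate 3 (0.0697). Npas2, its partner in place of Clock, was at 2.33, 0.85 and 1.48 FPKM in SHAM and at 0.29, 0.19 and 0.44 in DN-SM, which gave -2.30 and missed the threshold (edgeR adjusted p = 0.0688; 0.0231 without SHAM replicate 2). Clock itself had overlapping libraries, at 0.99 to 2.23 FPKM in SHAM and 1.08 to 1.19 in DN-SM (-0.57, edgeR adjusted p = 0.471).

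Per2 (gene ID 63840), a repressor of the loop, was at 1.46, 1.31 and 1.09 FPKM in SHAM and at 4.64, 5.91 and 5.22 in DN-SM. Every DN-SM library was above every SHAM library, and the rise was 2.04 (SE 0.164, edgeR adjusted p = 0.00192), with adjusted p between 0.00297 and 0.0258 when any 1 library was left out. Ciart (gene ID 365871), another repressor, was at 0.27, 1.30 and 1.43 FPKM in SHAM and at 7.89, 9.92 and 16.1 in DN-SM, a rise of 3.46 (SE 0.482, edgeR adjusted p = 0.0365). Its SHAM levels rested on few reads, as few as 3 counts in 1 library, and without any 1 library it did not pass (adjusted p 0.0543 to 0.143). Per3 and Per1 were at 0.95 and 1.31 on the log2 scale, short of the threshold (edgeR adjusted p = 0.127 and 0.317). Per1 was at 30.4 FPKM in DN-SM replicate 3, against 13.4 and 10.4 in the other DN-SM libraries, and without that library it was at 0.70. Cry1 was at -0.34 and Cry2 at 0.38, neither past the test.

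Among the outputs, Dbp was at 25.8, 54.0 and 57.6 FPKM in SHAM and at 163, 194 and 221 in DN-SM. The groups were well apart, and the log2 fold change of 2.13 missed the threshold (edgeR adjusted p = 0.0685) but passed without SHAM replicate 1 (0.0149). Tef, of the same family, was at 0.59 (edgeR adjusted p = 0.18). Nfil3 (gene ID 114519), a repressor at the same DNA element, fell from 25.9, 17.7 and 20.5 FPKM to 7.44, 8.93 and 11.6 (-1.17, SE 0.181, edgeR adjusted p = 0.0422). The receptors that repress Bmal1 gave no call in the 6 libraries. Nr1d1 was at 164, 205 and 240 FPKM in SHAM and 163, 122 and 122 in DN-SM (-0.58, edgeR adjusted p = 0.307). Nr1d2 was at 0.56 (edgeR adjusted p = 0.4), and it passed in 1 fit with a library left out (0.0273).

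Usp2 and Wee1 are not in the list but are known to follow the clock in several tissues. Usp2 (gene ID 115771), a deubiquitinase, was at 40.1, 35.9 and 32.9 FPKM in SHAM and at 56.1, 71.1 and 73.8 in DN-SM (0.90, SE 0.124, edgeR adjusted p = 0.0314). Wee1 (gene ID 308937), a kinase that holds back entry into mitosis, rose by 1.46 (SE 0.207, edgeR adjusted p = 0.0331) from 1.96, 1.54 and 1.65 FPKM to 3.51, 5.13 and 5.34. Both were higher in all 3 DN-SM libraries, and both passed with a library left out only without SHAM replicate 2 (0.0246 and 0.033) and without DN-SM replicate 1 (0.0337 for each). The DN libraries had Bmal1 at 1.06 to 1.71 FPKM, Per2 at 3.53 to 4.12, Ciart at 7.05 to 11.6 and Dbp at 179 to 235. These DN levels lay outside the SHAM range for each of the 4 genes.

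**Figure D2:**
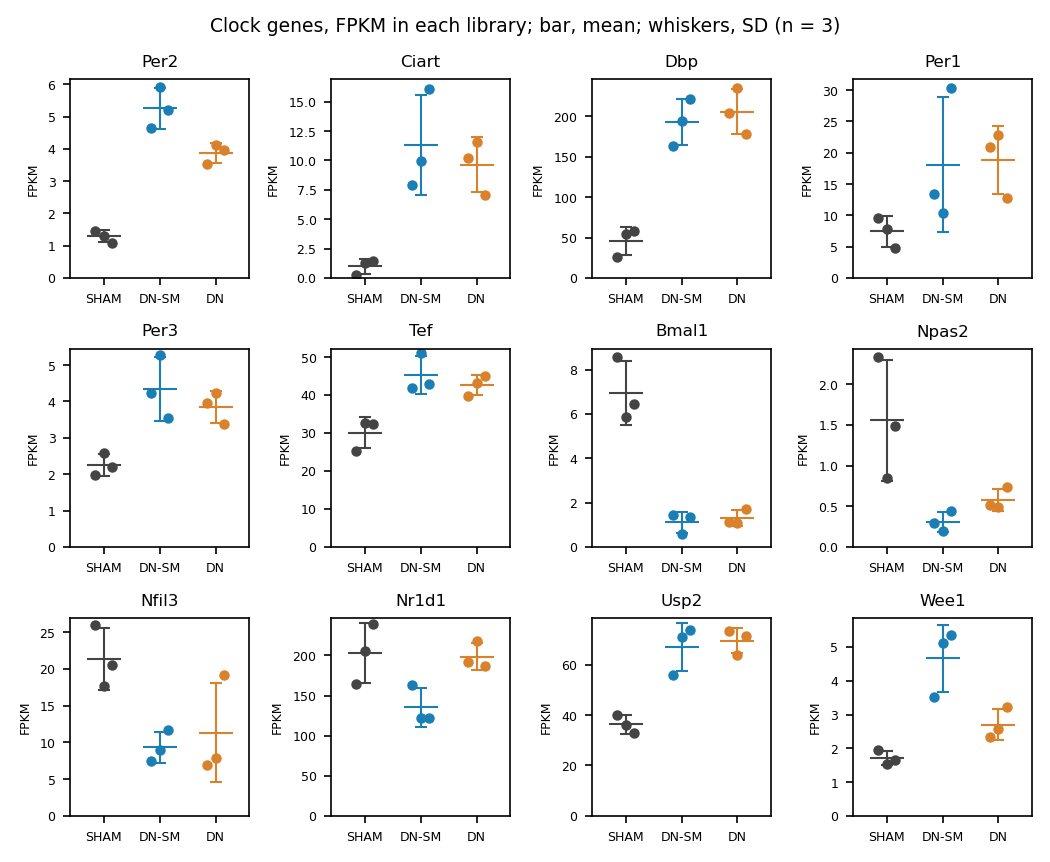
FPKM of 12 genes of the clock and its outputs (y axes, linear from 0) in each SHAM, DN-SM and DN library; points are libraries, the bar is the mean and the whiskers the SD (n = 3). Per2, Ciart and Dbp sit higher and Bmal1 and Npas2 lower in every DN-SM library than in every SHAM library.

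Among genes linked to the loss of the nerve and among growth arrest genes, some were high in stimulated muscle. Both lists hold Cdkn1a and Gadd45a, their only called members, which rose. That is 2 of 15 denervation-linked genes tested and 2 of 18 growth arrest genes, against 0.132% of all genes called higher. The libraries did not overlap in 60.0% of the first list (7 higher, 2 lower) and 27.8% of the second (5 higher, 0 lower), against 18.8% of all genes. The median log2 fold change was 0.75 in the first list, with 11 members above zero, and 0.34 in the second. The first median was 0.93 without SHAM replicate 1 and 0.46 without DN-SM replicate 2.

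Cdkn1a (gene ID 114851), the cell cycle inhibitor p21, was at 9.09, 6.46 and 10.2 FPKM in SHAM and at 43.0, 43.5 and 54.8 in DN-SM. Every DN-SM library was above every SHAM library. The rise was 2.47 on the log2 scale, or 5.55-fold (SE 0.18, edgeR adjusted p = 0.00166), and with any 1 library left out the adjusted p was between 0.000955 and 0.0149. In the DN libraries the level was 87.0, 37.2 and 123 FPKM, so that DN replicate 2 was below all DN-SM libraries and the other 2 were above them. Gadd45a (gene ID 25112), a stress protein of the DNA damage response, was at 3.59, 4.67 and 3.84 FPKM in SHAM and at 8.61, 13.9 and 15.2 in DN-SM (1.64, SE 0.257, edgeR adjusted p = 0.0422). Its groups did not overlap, but it passed with a library left out only without SHAM replicate 2 (0.0295) and without DN-SM replicate 1 (0.0365).

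Other members of these lists gave values short of the test. Below zero were 4 of the denervation-linked genes and 5 of the growth arrest genes. Among the 4 were Mss51 (-0.73, edgeR adjusted p = 0.404) and Scn4a (-0.57, 0.0633). Ankrd1, a stretch-responsive sarcomere protein, was at 3.24, 4.12 and 7.12 FPKM in SHAM and at 14.6, 30.5 and 30.1 in DN-SM, a log2 fold change of 2.36 (edgeR adjusted p = 0.0673; 0.0365 without DN-SM replicate 1). Cdkn1c, a cell cycle inhibitor related to Cdkn1a, had 1.25 (edgeR adjusted p = 0.0673). Runx1, a transcription factor of denervated muscle, had 0.99 (0.179), and Phlda3, a p53 target, 0.93 (0.209). Myog, the factor myogenin, was at 22.6, 13.6 and 19.2 FPKM in SHAM and 20.5, 24.4 and 29.3 in DN-SM. Its groups overlapped in FPKM but not in CPM, and the log2 fold change was 0.45 (edgeR adjusted p = 0.402). In DN, Myog was at 31.4 to 40.0 FPKM, above every library of the other groups.

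The list of the neuromuscular junction, the contact between nerve and fibre, had no edgeR call among 14 genes tested (1 at an unadjusted p under 0.05, and none with DESeq2) and a median of 0.13. Chrna1, the alpha subunit of the acetylcholine receptor, was at 15.5, 8.09 and 7.86 FPKM in SHAM and 11.0, 8.00 and 14.8 in DN-SM (0.14, edgeR adjusted p = 0.882). Its direction turned without DN-SM replicate 3 (-0.11) and with sample weights (-0.07). Chrnd, the delta subunit, was at 20.1, 7.97 and 5.89 FPKM in SHAM and 12.1, 10.8 and 31.6 in DN-SM (0.73, edgeR adjusted p = 0.669). DN-SM replicate 3 was the highest of these 6 libraries for Chrnd, and without it the log2 fold change was 0.06. Chrng, the fetal gamma subunit, was too low to be tested, at 0.06 to 0.62 FPKM in SHAM and 0.13 to 1.03 in DN-SM.

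Among ubiquitin ligases linked to muscle wasting the only calls were falls: of 22 tested, Fbxo32 and Asb2 fell and none rose. Over all genes tested, 0.152% were called lower. The libraries did not overlap in 40.9% of the 22 (3 higher, 6 lower), against 18.8% of all genes. The list's median was -0.17. Asb2 (gene ID 299266), a substrate receptor of a cullin ligase found in muscle, was at 579, 555 and 665 FPKM in SHAM and at 244, 217 and 197 in DN-SM. The groups did not overlap, and the fall was -1.44 (SE 0.148, edgeR adjusted p = 0.00857), which missed the threshold without DN-SM replicate 2 (0.0779) and without DN-SM replicate 3 (0.0697). Fbxo32 (gene ID 171043), the ligase atrogin-1, was at 13.9, 11.1 and 7.56 FPKM in SHAM and at 2.79, 3.34 and 3.75 in DN-SM (-1.69, SE 0.251, edgeR adjusted p = 0.0365). It rested on at most 31 counts per library in DN-SM and passed with a library left out only without SHAM replicate 2 (0.0381) and without SHAM replicate 3 (0.0139). Levels in the DN libraries were also below every SHAM library, at 215 to 313 FPKM for Asb2 and 2.33 to 5.37 for Fbxo32.

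Trim63, the ligase MuRF1, was at 94.0, 111 and 98.7 FPKM in SHAM and 70.0, 71.9 and 91.5 in DN-SM, a log2 fold change of -0.37 (edgeR adjusted p = 0.366). Trim55, of the same family, was at 0.60 (0.121), and Asb11 at -0.50 (0.264). Neither edgeR nor DESeq2 called any of 31 proteasome subunits (median 0.04; 1 higher and 1 lower at an unadjusted p under 0.05 in edgeR). Of 28 genes of autophagy and lysosome (median -0.06), edgeR called none, 3 were lower at an unadjusted p under 0.05, and DESeq2 called 1 lower. The smallest p there was that of Ulk1, the kinase that starts autophagy, at -0.63 (edgeR adjusted p = 0.0633). Ulk1 passed in 1 fit with a library left out (0.033).

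Ppp1r27 (gene ID 287881), an inhibitory partner of protein phosphatase 1, was at 414, 294 and 359 FPKM in SHAM and at 142, 138 and 141 in DN-SM. The DN-SM libraries lay close together and all below SHAM, with a fall of -1.32 (SE 0.113, edgeR adjusted p = 0.00235) and an adjusted p of 0.000955 to 0.0337 with any 1 library left out. Mylk2 (gene ID 117558), the kinase that phosphorylates the myosin light chain of skeletal muscle, fell from 393, 438 and 479 FPKM to 220, 235 and 231 (-0.93, SE 0.142, edgeR adjusted p = 0.0421), and passed with a library left out only without SHAM replicate 1 (0.0172) and without SHAM replicate 2 (0.0384). It was the only call among 18 fast fibre genes, whose median was 0.11, against 0.152% of all genes tested called lower. The libraries did not overlap in 22.2% of the 18 (3 higher, 1 lower), against 18.8% of all genes. Mknk2 (gene ID 299618), a kinase of the translation factor eIF4E, was at 198, 184 and 188 FPKM in SHAM and 116, 105 and 113 in DN-SM (-0.76, SE 0.108, edgeR adjusted p = 0.0331). Dusp26 (gene ID 306527), a dual-specificity phosphatase, was at 102, 82.5 and 83.7 FPKM in SHAM and 42.8, 38.9 and 52.2 in DN-SM (-0.98, SE 0.127, edgeR adjusted p = 0.0233). It did not pass without SHAM replicate 1 (0.0718), DN-SM replicate 1 (0.149) or DN-SM replicate 2 (0.0984). All 4 genes were lower in every DN-SM library than in any SHAM library, as were 9.7% of all genes tested.

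Immediate early genes respond within minutes to contraction, stress or growth factors. Of 24 tested, Fosb was the only call, a fall, and the median was -0.09. Over all genes tested, 0.152% were called lower. The libraries did not overlap in 16.7% of the 24 (0 higher, 4 lower), against 18.8% of all genes. Fosb (gene ID 100360880) was at 3.34, 3.80 and 1.98 FPKM in SHAM and 0.60, 0.63 and 0.65 in DN-SM (-2.25, SE 0.294, edgeR adjusted p = 0.0233), passing with a library left out only without SHAM replicate 2 (0.0231) and without SHAM replicate 3 (0.00604). Its relative Fos was at 8.89, 11.4 and 3.96 FPKM in SHAM and 1.17, 1.46 and 2.69 in DN-SM, a log2 fold change of -2.18 (edgeR adjusted p = 0.105). Fos passed in 1 fit with a library left out (0.0379). In both genes the DN libraries lay above all DN-SM libraries and overlapped the SHAM range, at 1.34 to 2.17 FPKM for Fosb and 3.62 to 6.36 for Fos. A few stress genes stood high in DN-SM replicate 3 alone: Ddit4 was at 35.2 FPKM there and at 3.85 to 7.87 in the other 5 libraries, Gadd45g at 78.6 against 8.16 to 14.5, and Zfp36 at 67.9 against 9.32 to 15.8. None of the 3 passed the test.

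**Figure D3:**
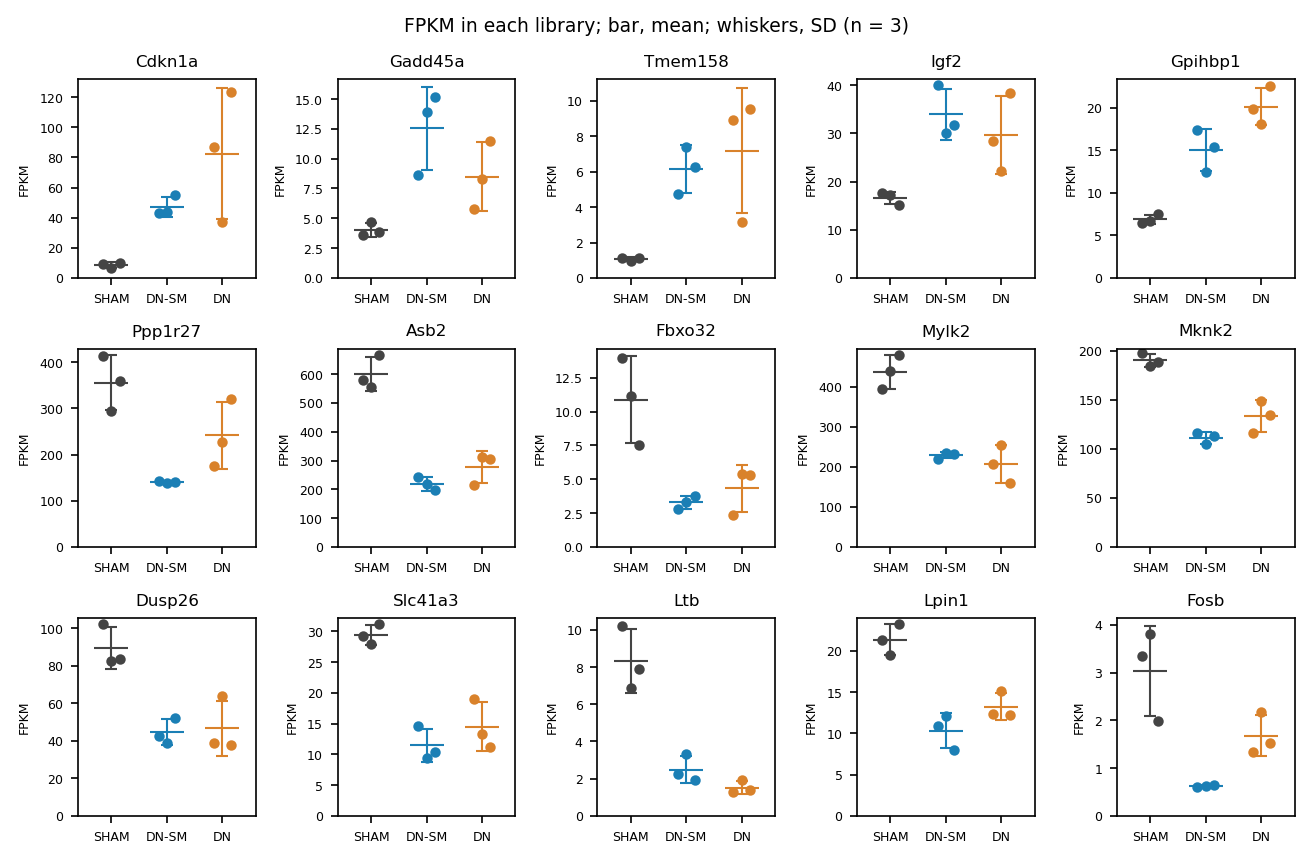
FPKM of 15 called genes outside the clock list (y axes, linear from 0) in each SHAM, DN-SM and DN library; points are libraries, the bar is the mean and the whiskers the SD (n = 3). DN-SM lies above SHAM in the 5 panels from Cdkn1a to Gpihbp1 and below it in the 10 panels from Ppp1r27 to Fosb.

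Lpin1 (gene ID 313977), the phosphatase lipin that makes diacylglycerol and coactivates fat oxidation genes, was at 21.3, 19.6 and 23.3 FPKM in SHAM and 10.9, 12.1 and 7.96 in DN-SM (-1.04, SE 0.168, edgeR adjusted p = 0.0494). Slc41a3 (gene ID 641603), a magnesium transporter, fell from 29.2, 27.9 and 31.1 FPKM to 14.5, 9.47 and 10.3 (-1.35, SE 0.177, edgeR adjusted p = 0.0233), and passed with a library left out only without SHAM replicate 2 (0.0246) and without DN-SM replicate 1 (0.0228). Gene ID 140582, for which the tables used gave no symbol, fell from 64.4, 73.9 and 66.5 FPKM to 30.7, 29.0 and 30.7 (ID140582: -1.17, SE 0.13, edgeR adjusted p = 0.011). Its groups were far apart compared with their spread, but it did not pass without DN-SM replicates 1, 2 or 3 (0.0553, 0.0779 and 0.0821). The helicase-family genes Dhx37 (gene ID 288647) and Ddx23 (gene ID 300208) fell by 0.86 and 0.72 on the log2 scale (edgeR adjusted p = 0.0365 and 0.0422), from 6.99 to 8.75 and 55.3 to 61.6 FPKM in SHAM to 4.21 to 4.39 and 33.8 to 35.8 in DN-SM. In DN, Dhx37 was at 6.17 to 8.00 FPKM, overlapping the SHAM range.

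The remaining rises included secreted and surface proteins. Igf2 (gene ID 24483), an insulin-like growth factor, was at 17.5, 17.2 and 15.1 FPKM in SHAM and at 40.0, 30.1 and 31.8 in DN-SM (1.05, SE 0.146, edgeR adjusted p = 0.0314). It was the only call among 29 genes of growth factor and myostatin signalling, whose median was -0.12. Over all genes tested, 0.132% were called higher. The libraries did not overlap in 17.2% of the 29 (2 higher, 3 lower), against 18.8% of all genes. Tmem158 (gene ID 117582), a membrane protein of unsettled role, was at 1.15, 0.93 and 1.14 FPKM in SHAM and at 4.72, 7.41 and 6.26 in DN-SM (2.51, SE 0.296, edgeR adjusted p = 0.0133). Ppp1r14c (gene ID 171010), an inhibitor of protein phosphatase 1, was at 0.41 to 0.54 FPKM in SHAM and 2.15 to 3.01 in DN-SM (2.38, SE 0.265, edgeR adjusted p = 0.011). Neither passed without SHAM replicate 1 (0.0718 and 0.0599), DN-SM replicate 2 (0.0779 for each) or DN-SM replicate 3 (0.0821 and 0.0697). Sez6l2 (gene ID 308988), a membrane protein best known from neurons, was at 0.42 to 0.59 and 1.47 to 2.29 FPKM (1.93, SE 0.284, edgeR adjusted p = 0.0365). The levels of Ppp1r14c and Sez6l2 stayed low in both groups. Tceal5 (gene ID 680282), of a family of elongation factor-like proteins with close copies, was at 11.8, 6.62 and 6.09 FPKM in SHAM and 19.2, 24.7 and 19.5 in DN-SM (1.41, SE 0.223, edgeR adjusted p = 0.0422). Reads of close copies may have been split between genes, so its value is uncertain.

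Gpihbp1 (gene ID 300027), which anchors lipoprotein lipase on capillary endothelium, was at 6.45, 6.75 and 7.52 FPKM in SHAM and at 17.4, 12.4 and 15.4 in DN-SM (1.13, SE 0.178, edgeR adjusted p = 0.0422). Sh2d3c (gene ID 362111), an adaptor protein, was at 7.78, 6.71 and 6.43 FPKM in SHAM and 12.6, 11.2 and 12.0 in DN-SM (0.80, SE 0.126, edgeR adjusted p = 0.0422). The 14 endothelial marker genes had no edgeR call (5 higher and 1 lower at an unadjusted p under 0.05 and 1 with DESeq2) and a median of 0.29, with 10 above zero. Their summed level was 184 to 234 FPKM in SHAM and 239 to 266 in DN-SM, and none was at 0. Cdh5, the cadherin of endothelial junctions, had a log2 fold change of 0.58 (edgeR adjusted p = 0.0688). The part of endothelial content in the levels of Gpihbp1 and Sh2d3c was not tested. In bulk tissue, fewer cells of a type and less RNA per cell cannot be told apart.

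Ltb (gene ID 361795), the cytokine lymphotoxin beta, was at 10.2, 6.87 and 7.87 FPKM in SHAM and at 2.25, 3.32 and 1.91 in DN-SM (-1.70, SE 0.253, edgeR adjusted p = 0.0365). Of 13 lymphocyte markers with a measured gene, only Ltb and Cd4 had enough reads to be tested. Cd4 was at -0.68 (edgeR adjusted p = 0.377). Summed over the 12 markers other than Ltb, the level was 4.74 to 10.8 FPKM in SHAM and 5.03 to 6.96 in DN-SM, so that the groups overlapped, and none was at 0 in all 6 libraries. The part of lymphocytes in the level of Ltb was not tested.

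Among the sarcomere lists, embryonic and cardiac genes had no call in edgeR or DESeq2 among 10 tested (median 0.32), and slow fibre genes none among 15 (median 0.21); each list had 1 member at an unadjusted edgeR p under 0.05. Myh3, the embryonic myosin, was at 5.90, 1.21 and 4.25 FPKM in SHAM and 12.6, 13.2 and 9.91 in DN-SM. Its groups did not overlap, but 1.70 on the log2 scale fell short of the threshold (edgeR adjusted p = 0.238; 0.0183 without SHAM replicate 2, the lowest library). Myh4, the fastest myosin, was at 1752, 6969 and 2331 FPKM in SHAM and 2732, 2401 and 1626 in DN-SM, at -0.73 (edgeR adjusted p = 0.655) and at 0.18 without SHAM replicate 2. As a share of the summed FPKM of 6 myosins, Myh4 was 45.3% ± 26.1 (SD, n = 3) in SHAM and 29.0% ± 5.64 in DN-SM, and Myh1 33.8% ± 14.0 and 49.9% ± 3.34. Myh7, the slow myosin, was at 416 to 1477 FPKM in SHAM and 805 to 1682 in DN-SM (0.26, edgeR adjusted p = 0.865), and its direction turned without SHAM replicate 2 (-0.09) and without DN-SM replicate 3 (-0.13). Myosin genes are near-identical over long stretches, so reads may have been split between them.

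The lists of energy metabolism gave no edgeR call. Of 39 respiratory chain genes, 35 had log2 fold changes above zero with a median of 0.14. At an unadjusted p under 0.05, 7 of the 39 were higher, against 552 of all 9860 genes tested. None of the 39 was called by DESeq2. DESeq2 called 2 genes lower in the tricarboxylic acid cycle list, 1 lower in fatty acid oxidation, 1 lower in glycolysis and glycogen, and none among the mitochondrial regulators. The 27 genes of the tricarboxylic acid cycle and pyruvate dehydrogenase had a median of 0.16, the 24 of fatty acid oxidation 0.15, the 26 of glycolysis and glycogen -0.15, and the 17 regulators of mitochondrial biogenesis -0.21. Ppargc1a, the coactivator PGC-1 alpha, was at 0.89 to 1.59 FPKM in SHAM and 1.18 to 2.07 in DN-SM (0.27, edgeR adjusted p = 0.783). Ucp3, an uncoupling protein of muscle mitochondria, was at 34.6, 34.9 and 63.8 FPKM in SHAM and 7.99, 14.1 and 6.36 in DN-SM, and Pdk4, a kinase that shuts off pyruvate dehydrogenase, at 71.0, 61.8 and 80.2 and at 20.6, 42.7 and 34.1. The groups of both genes were apart, yet the differences of -2.22 and -1.12 on the log2 scale missed the threshold (edgeR adjusted p = 0.0895 and 0.121).

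The collagen and tendon lists gave no edgeR call, and their medians moved with single SHAM libraries. The 30 genes of fibrillar collagens and matrix had a median of -0.33, with 23 below zero; 5 had an unadjusted p under 0.05, and DESeq2 called 2. Without SHAM replicate 2 the median was -0.62 and 4 members were called; without SHAM replicate 3 it was -0.17 with none. Col1a1, the main chain of type I collagen, was at 326, 132 and 411 FPKM in SHAM and 131, 189 and 124 in DN-SM (-0.95, edgeR adjusted p = 0.402). Without SHAM replicate 2 it passed, at -1.28 (0.0443). The 8 tendon markers were all below zero with a median of -1.45; edgeR called none, 5 had an unadjusted p under 0.05 and DESeq2 called 2. Their summed level was 117, 60.4 and 225 FPKM in SHAM and 43.0, 79.5 and 56.0 in DN-SM, and without SHAM replicate 3, the library with the highest sum, the median was -0.68. Chad, a cartilage and tendon matrix protein, was at 8.66, 3.70 and 10.0 FPKM in SHAM and 0.35, 1.66 and 1.05 in DN-SM (-2.84, edgeR adjusted p = 0.0821). Chad passed in 1 fit with a library left out (0.024). The part of tendon tissue in the collagen levels was not tested. The 11 fibroblast markers tested had a median of -0.12, with summed levels of 581 to 1330 FPKM in SHAM and 641 to 759 in DN-SM.

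In edgeR no further list of cell markers had a call. The 11 markers of Schwann cells and nerve that could be tested had a median of 0.58 with 10 above zero. Of these 11, 5 were higher and none lower at an unadjusted p under 0.05, and DESeq2 called none. Their whole list summed to 77.9 to 86.0 FPKM in SHAM and 95.5 to 202 in DN-SM, and Nefl, the light neurofilament of axons, was at 0 in the 6 libraries. Macrophage markers had a median of -0.05 over 13 genes, satellite cell markers 0.06 over 9 and adipocyte markers 0.11 over 12. Aqp4, a water channel of fast fibres, had overlapping libraries at 4.28 to 9.81 FPKM in SHAM and 5.12 to 7.35 in DN-SM (-0.14, edgeR adjusted p = 0.877; 0.05 without SHAM replicate 1), while DN lay at 1.99 to 2.62. Serpina3n, a protease inhibitor known from denervated muscle, was too low to be tested, at 0.11 to 0.49 FPKM in SHAM and 0.06 to 0.55 in DN-SM, with DN at 3.79 to 5.55. For these genes the DN levels are given as values only.

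Across the 41 lists, 8 had a called member and 33 had none. The lists together covered 680 tested genes, of which 5 were higher and 7 lower, against 0.132% and 0.152% of all genes tested. In the 33 lists without an edgeR call, 53 of 558 tested members had an unadjusted p under 0.05 with a higher level and 46 with a lower one. Over all 9860 genes tested these counts were 552 and 579. Of the 558, DESeq2 called 5 higher and 16 lower. Further lists without an edgeR call were excitation-contraction coupling (20 tested, median -0.13), sarcolemma and dystrophin complex (18, -0.05), Z-disc and titin proteins (24, 0.08), basement membrane (10, 0.25), heat shock and chaperones (20, 0.09), the integrated stress response (14, -0.14), the glucocorticoid response (22, 0.29), polyamine metabolism (11, 0.06), cytosolic ribosomal proteins (35, -0.01), the interferon response (25, 0.12) and proliferation (10, 0.15). At an unadjusted p under 0.05, 6 excitation-contraction genes were lower and none higher, and DESeq2 called 3 lower. In the glucocorticoid list 7 were higher and 3 lower, and DESeq2 called 2 higher and 2 lower. In the integrated stress response 3 were higher and 4 lower, and DESeq2 called 1 lower. The smallest p in the excitation list was that of Scn4a, the sodium channel of the fibre membrane, at -0.57 (edgeR adjusted p = 0.0633). In the Z-disc list it was that of Smpx, a small muscle protein, at 138, 101 and 95.7 FPKM in SHAM and 180, 177 and 180 in DN-SM (0.71, edgeR adjusted p = 0.0515). The remaining marker lists were muscle fibre (9, 0.07), smooth muscle and pericyte (13, -0.02), neutrophil and mast cell (4, -0.27) and erythroid (7, -0.37).

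**Figure D4:**
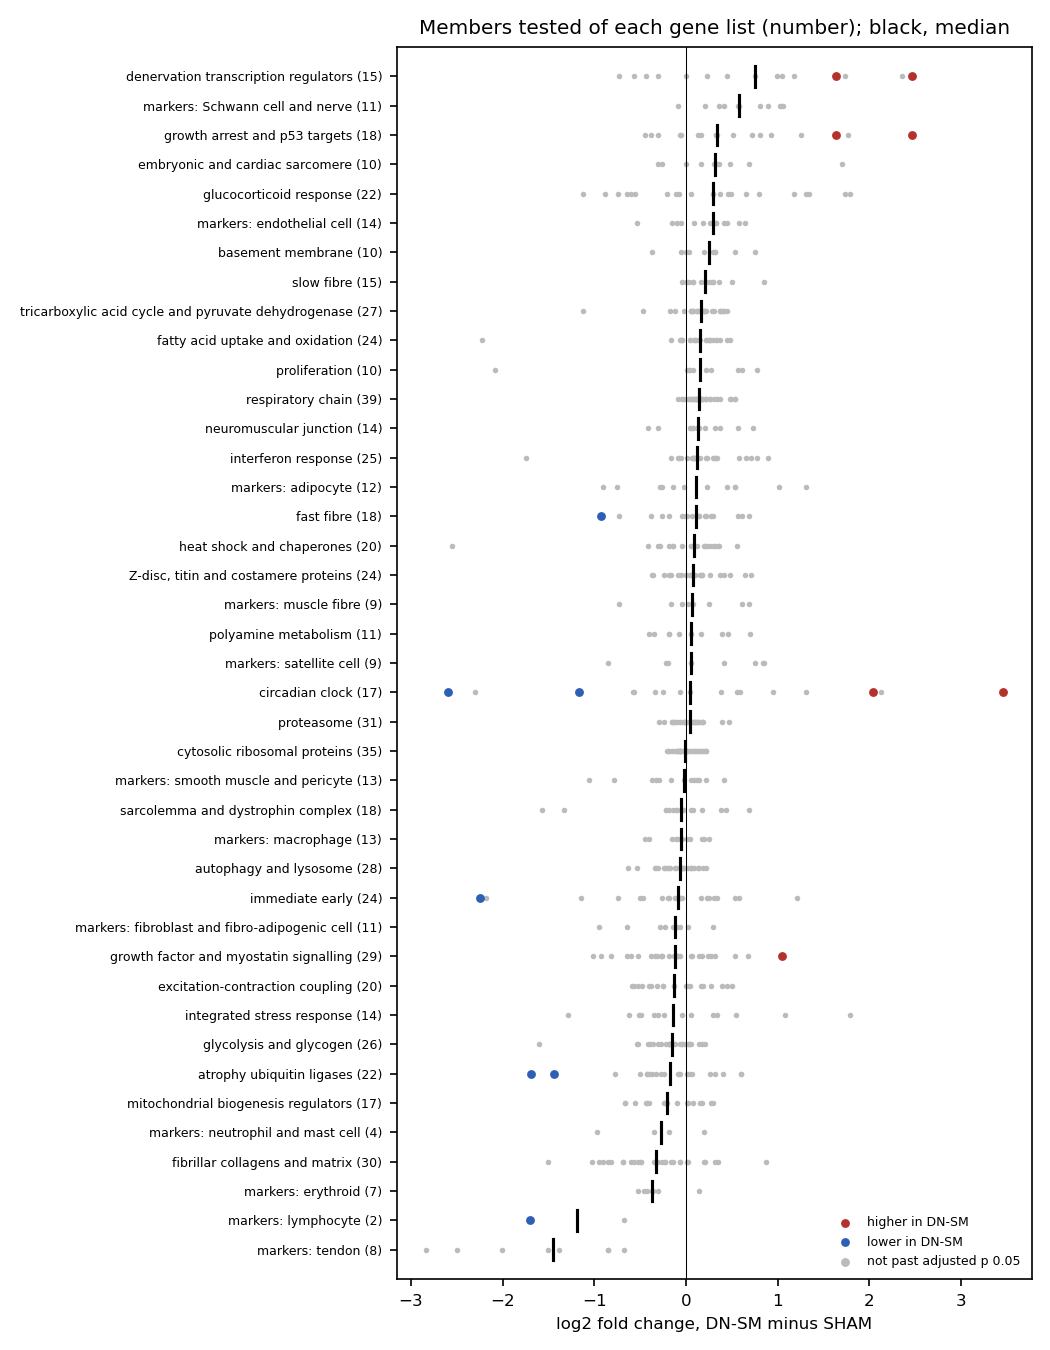
Log2 fold change (DN-SM minus SHAM, x axis) of each tested member of the 41 gene lists (y axis, number tested in brackets); the black bar is the list's median and coloured points are called members. Called members appear in 8 lists, and the clock list holds called genes on both sides of zero.

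**Figure D5:**
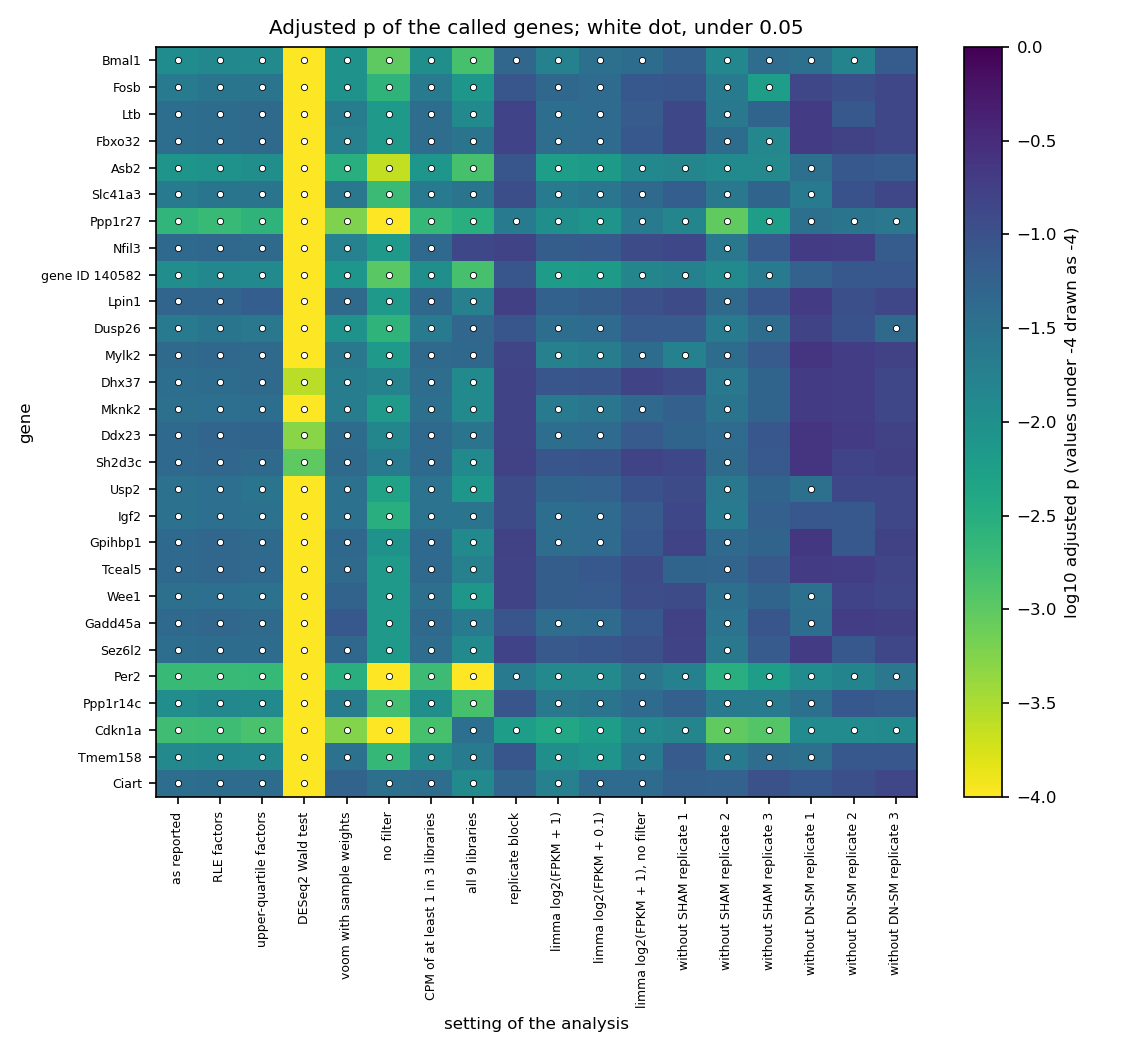
Adjusted p (colour, log10 scale) of the 28 called genes (y axis) as reported and under 17 other settings (x axis); a white dot marks an adjusted p under 0.05. Cdkn1a, Per2 and Ppp1r27 have a dot in every column, and Ciart has none in the 6 columns that leave out a library.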

How the data were processed

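Messenger RNA of rat gastrocnemius was sequenced on a BGISEQ-500, 3 libraries a group, per the labels. The submitters' processing notes name HISAT2, RSEM, GATK and the rat build rn6; versions and settings are not given in the sources used here. The deposited files list, per the file headers, RSEM's expected counts, not normalized, and FPKM, scaled by the authors to transcript length and library size; genes at 0 are not listed. Files were joined on gene ID with missing genes set to 0 (13497 IDs over the 6 libraries). RefSeq tables gave symbols: of 13752 IDs over the 9 libraries, 13649 matched by gene ID, 7 by accession and 96 not at all.

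Expected counts were rounded and tested with edgeR 4.0.16 (R 4.3.3; TMM factors, filterByExpr with a minimum count of 10 and total of 15, robust two-sided quasi-likelihood F test, group as the only term) on the 6 libraries. P-values were adjusted by Benjamini-Hochberg over 9860 genes. On simulated data with 50 genes changed at each fold, 7, 22, 44 and 47 were recovered at 1.5-, 2-, 3- and 4-fold, with 11 false calls. In that simulation differences of 2-fold and less were often missed, larger ones less often. It set the number of changed genes in advance and gave both groups the same spread. The real SHAM libraries spread more than the DN-SM libraries (median SD 0.247 against 0.167). Its rates may therefore not hold for the real data, where Dbp (4.38-fold) and Ucp3 (4.67-fold) missed the threshold. Some calls in the real data could be false.

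Named genes were the 12 largest rises and falls past the test with a mean FPKM of 5 in the higher group and no overlap, up to 3 called members of each of the 41 lists or else the 2 with the smallest p, and a fixed set of known denervation genes. Ppp1r14c, Sez6l2, Wee1, Mknk2, Ddx23, the clock genes without a call and a few further list members were added after their values were seen. Of 826 list members written, 787 matched. The comparison, lists and rule were chosen with earlier results of these data known. Alternatives were DESeq2 1.42.0 (Wald test), upper-quartile and RLE factors, voom with sample weights and log2(FPKM + 1 or 0.1) in limma 3.58.1, other filters, all 9 libraries, the replicate number as a block, and leaving out each library.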

Additional observations from a re-analysis of the deposited data

How the results depend on the processing

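The count of 28 called genes (13 higher, 15 lower) became 163 (72 and 91) with DESeq2, 85 (42 and 43) with all 9 libraries in the fit, 62 (29 and 33) without a filter, 48 (22 and 26) in voom with sample weights, 12 (5 and 7) in limma on log2(FPKM + 1) without a filter and 6 (4 and 2) with the replicate number as a block. With 1 library left out, which also leaves fewer samples, it ranged from 4 to 72, the higher count from 2 to 25 and the lower count from 2 to 47. Other factors, a CPM filter and limma on filtered log2 FPKM gave counts of 27 to 29. All 28 genes were held by DESeq2, RLE factors, the CPM filter and the unfiltered fit, 27 by the fit of 9 libraries, 26 by upper-quartile factors, 25 by voom, 20 by limma on filtered log2 FPKM at either pseudocount, 12 by limma without a filter and 4 by the block (Bmal1, Per2, Cdkn1a and Ppp1r27). No called gene changed direction in any setting run. Same-numbered libraries did not deviate together (correlations -0.0291, 0.000442 and -0.0423). With 3 libraries a group this does not settle whether equal numbers share an animal or batch, which the labels do not state. Direction was followed for the called genes and further genes named here, not for all genes tested. Among these the log2 fold change turned direction in 5 genes, none of them called, and the cause was not tested. With 1 library left out it ranged from -0.39 to 0.05 in Aqp4 (turned without SHAM replicate 1), from -0.11 to 0.42 in Chrna1 (without DN-SM replicate 3, and -0.07 with sample weights), from -1.13 to 0.18 in Myh4 (without SHAM replicate 2), from -0.13 to 0.57 in Myh7 (without DN-SM replicate 3, and -0.09 without SHAM replicate 2) and from -0.33 to 1.64 in Zfp36 (without DN-SM replicate 3). Of 697 list medians recomputed, 40 moved by more than the spread between replicates.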
